A study of Mus musculus with 8 samples.

Results

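Caspases, the Bcl2 family and death receptors form the machinery of apoptosis, and 37 of its genes were sought on 8 whole-transcript Affymetrix arrays of mouse brain cortex. Members were the named genes with a probe set that the platform annotation maps to that gene alone, and 34 of the 37 were measured, of 19938 genes in all. Bax, Ripk1 and Trp53 had no such probe set and were not analysed here. The VEGF group held 4 arrays of GFAP-tTA: TetO-VEGF-A164 bitransgenic embryos, labelled as induced overexpression of VEGF. The Gfap promoter, active in glia and their precursors, drives the transactivator tTA, which switches on the TetO transgene for VEGF-A164, an isoform of the main growth factor of blood vessels. The control group held 4 arrays labelled wild type, from embryos that lack the TetO transgene, and the labels do not say whether any of them carried the transactivator alone. All embryos were at embryonic day 16 on a mixed strain background, and nothing in the labels says whether an array holds 1 embryo or a pool, or which embryos shared a litter.

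In the mitochondrial pathway, BH3-only proteins sense stress and release the effectors Bax, Bak1 and Bok from survival proteins such as Bcl2. The effectors let cytochrome c out of mitochondria, and with Apaf1 it forms the apoptosome, which starts caspase-9. In the receptor pathway, Fas, TNF receptors and the TRAIL receptor Tnfrsf10b recruit adaptors that start caspase-8. The tumour suppressor p53 induces genes of both branches, and apoptosis removes many progenitors and young neurons in the developing cortex.

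The deposited values are on a log scale read as log2, and the median of every probe set across the 8 arrays was set to 0. A value is therefore relative to the other arrays, levels cannot be compared between genes, and whether a gene was expressed at all, or whether cortex markers were present, cannot be read. Array medians lay between -0.0091 and 0.0055 in VEGF and between -0.0035 and 0.015 in control. Vegfa itself did not separate the groups, at 0.059, 0.078, -0.026 and -0.055 in VEGF, against -0.10, 0.036, -0.12 and 0.026 in control (exact two-sided permutation p = 0.343). It therefore does not check the labels, and the groups are called by their labels only. Xist was high in 2 of 4 VEGF arrays, VEGF 2 and VEGF 3, and in 1 of 4 control arrays, control 3, a female pattern. In bulk tissue, fewer cells of a type and less RNA per cell cannot be told apart.

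No gene of the machinery passed the test. Of 19938 genes, 0 (0%) passed limma's test at an adjusted p of 0.05, and so did 0 of the 34 members, whose lowest adjusted p was 0.243. The methods' t-test with Benjamini-Hochberg adjustment also called 0 genes. At an unadjusted limma p under 0.05 there were 5 members (14.7%), against 12.5% of all genes, and in 5 members (14.7%) the groups did not overlap, against 6.84% of all genes. Of these, 3 were higher (8.82%), against 2.13% of all genes, and 2 lower (5.88%), against 4.71%. Of the 5 at that p, Tnfrsf10b, Cycs and Cflar were higher (8.82%), against 4.62% of all genes, and Bmf and Mdm2 were lower (5.88%), against 7.84%. Differences were small, with 6 members (17.6%) above 0.1 in absolute size, against 21.7% of all genes. The 95% interval of the difference lay within -0.3 to 0.3 for 32 of the 34, the exceptions being Tnfrsf10b and Bmf.

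**Figure D1:**
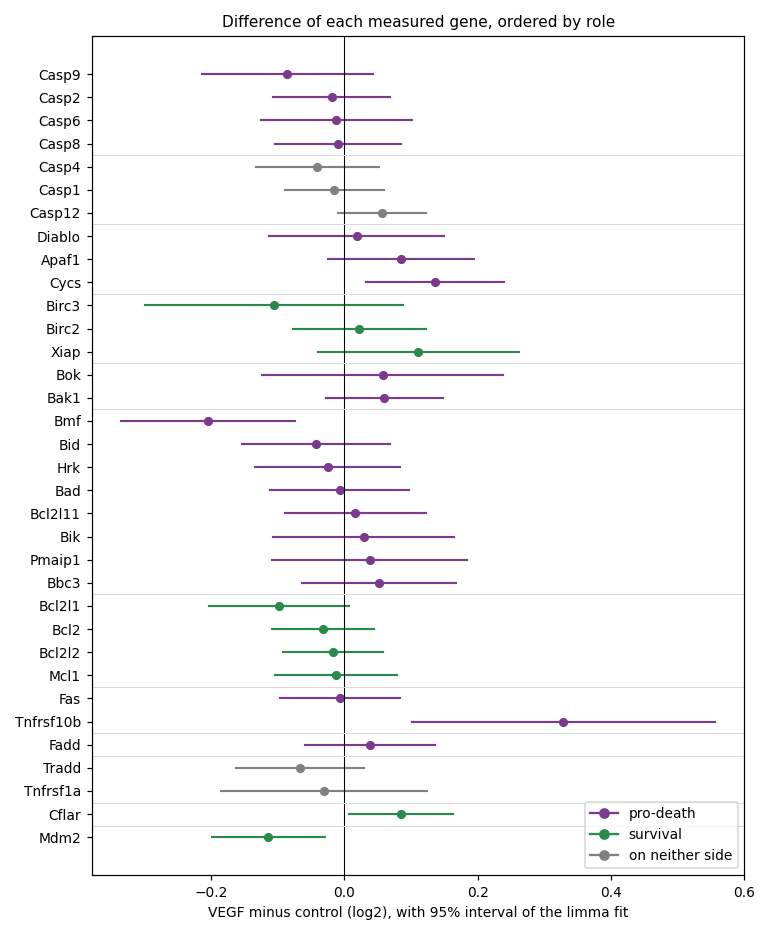
Difference of VEGF minus control (horizontal axis, log2 scale) for each of 34 measured genes, ordered by role, with points for the estimate and lines for the 95% interval of the limma fit. Tnfrsf10b lies farthest to the right at 0.33 and Bmf farthest to the left at -0.20, while most intervals cross 0.

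Death receptors and their adaptors were read by 6 genes. Tnfrsf10b, the only receptor in mice that passes on the death signal of TRAIL, was at 0.078, 0.37, 0.48 and 0.0094 in the 4 VEGF arrays, against -0.19, -0.12, -0.0094 and -0.063 in the 4 control arrays. All VEGF arrays lay above all control arrays, but VEGF 4 and control 3 were close together, and VEGF 2 and VEGF 3 stood far above the other arrays. The mean was 0.23 ± 0.22 in VEGF and -0.096 ± 0.079 in control (SD, n = 4 each). The difference was 0.33 ± 0.10 (SE), which is 1.26-fold if the base is 2 (limma, adjusted p = 0.265). VEGF 2 and VEGF 3 carry the female pattern, and so does control 3, the highest control array. With the sex pattern as a covariate the difference was 0.26 (limma, adjusted p = 0.243), and it was 0.43 among arrays of the female pattern, which include 1 control array, and 0.17 among those of the male pattern. Fas, the receptor of Fas ligand, differed by -0.0067, with an interval from -0.097 to 0.084.

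Adaptors and the TNF receptor complex showed less. Fadd, which links death receptors to caspase-8, differed by 0.038 (limma, adjusted p = 0.799). It was at 0.13 in VEGF 3 but at -0.021, 0.0026 and -0.00039 in the other VEGF arrays, against -0.0067, -0.062, 0.00039 and 0.029 in control, and the groups overlapped. Without VEGF 3 its difference was 0.0034. Tradd, the adaptor of TNF receptor 1, was at -0.13, -0.019, 0.039 and -0.042 in VEGF, against 0.071, -0.0072, 0.0072 and 0.042 in control. The groups overlapped and the difference was -0.067 (limma, adjusted p = 0.587). Without VEGF 1 it was -0.036. Tnfrsf1a, TNF receptor 1 itself, differed by -0.030. Cflar, the inactive relative of caspase-8 that blocks it at the receptor, was at 0.037, 0.095, 0.019 and 0.020 in VEGF, against -0.086, -0.0092, -0.027 and -0.047 in control. Every VEGF array was above every control array, by a difference of 0.085 with an SE of 0.034 (limma, adjusted p = 0.367). Its 3 probe sets differed by 0.12, 0.089 and 0.050, all in the same direction. Taken singly, only the probe set at 0.12 separated the groups, and in those at 0.089 and 0.050 they overlapped.

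Caspases differed little on average. Of the initiator and executioner caspases, all 4 measured were lower on average, with a median difference of -0.015, and in none were the groups apart. Casp9, started by the apoptosome, was at 0.032, -0.17, -0.075 and -0.029 in VEGF, against 0.029, 0.12, -0.091 and 0.046 in control, a difference of -0.085 (limma, adjusted p = 0.606). The groups overlapped, and without VEGF 2 the difference was -0.049. Casp2, Casp6 and Casp8 differed by -0.019, -0.012 and -0.0092, and the 95% intervals of these 3 lay between -0.13 and 0.10. The inflammatory caspases, of which Casp1 matures interleukin-1 beta, lie on chromosome 9. Casp12 was at 0.012, 0.048, 0.033 and 0.026 in VEGF, against -0.027, -0.012, -0.036 and -0.031 in control. The groups did not overlap, but the whole range over the 8 arrays was 0.084 and the difference 0.056 (limma, adjusted p = 0.482). Its SD within groups, 0.013, was at the 0.16th percentile of all genes, and a centred value does not tell a steady transcript from a probe set near background. Casp1 differed by -0.015 and Casp4 by -0.041.

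Mitochondrial factors were higher on average in VEGF. Cycs, cytochrome c, was at -0.024, 0.16, 0.13 and 0.097 in VEGF, against -0.056, -0.10, -0.017 and -0.014 in control. VEGF 1 lay among the control arrays and the other 3 above them, and the difference was 0.14 with an SE of 0.046 (limma, adjusted p = 0.30). Its 3 probe sets differed by 0.19, 0.17 and 0.0505. Members with 1 probe set have probe set numbers grouped by chromosome. By that order the Cycs probe set at 0.0505 falls within chromosome 6, where Cycs lies. The one at 0.17 falls within chromosome 5 and the one at 0.19 within chromosome 19. In Cflar, on chromosome 1, the probe set at 0.050 also falls outside its chromosome. Cytochrome c has processed pseudogenes of similar sequence, and which locus each probe set reads was not tested. Apaf1, the scaffold of the apoptosome, differed by 0.085, and Diablo, which lifts the block of IAP proteins, by 0.0185. Diablo was lowest of all arrays in VEGF 1 at -0.14 and highest in VEGF 2 at 0.13.

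**Figure D2:**
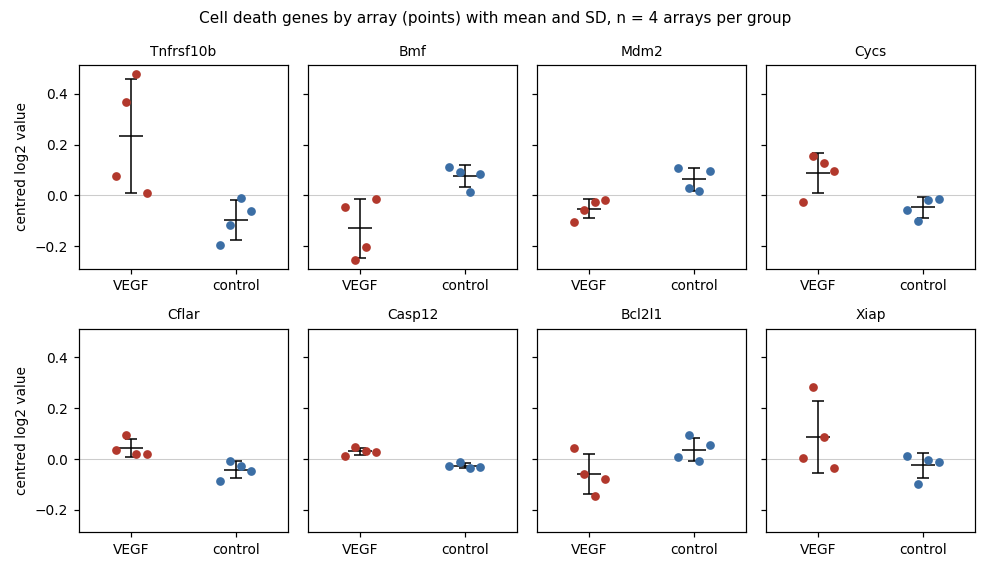
Centred log2 values (vertical axis) of 8 genes in each array, VEGF left and control right, with points for arrays and bars for the mean and SD of 4 arrays. In Tnfrsf10b, Bmf, Mdm2, Cflar and Casp12 the groups do not overlap, and in Tnfrsf10b and Bmf 2 VEGF arrays stand far from the rest.

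Inhibitor of apoptosis proteins, which bind caspases or act on TNF receptor complexes, went in different directions. Xiap, the direct inhibitor of caspases, was at 0.0055, 0.28, 0.089 and -0.034 in VEGF, against 0.013, -0.097, -0.0055 and -0.011 in control. VEGF 2 alone was far above the others, and the difference of 0.11 (limma, adjusted p = 0.559) was 0.045 without it. Xiap lies on the X chromosome, and with the sex pattern as a covariate its difference was 0.080. Among arrays of the female pattern, which include 1 control array, the difference was 0.19, and among those of the male pattern 0.018. Birc2 differed by 0.023 and Birc3 by -0.11, and the interval of Birc3 ran from -0.30 to 0.088.

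Among BH3-only genes Bmf differed most. Bmf, whose protein is held at the cytoskeleton and freed by loss of anchorage, was at -0.047, -0.25, -0.20 and -0.014 in VEGF, against 0.11, 0.093, 0.014 and 0.082 in control. No VEGF array reached a control array, though VEGF 4 and control 3 were close, and VEGF 2 and VEGF 3 were again farthest out, on the low side. The mean was -0.13 ± 0.12 in VEGF and 0.075 ± 0.043 in control (SD, n = 4 each). The difference was -0.20 ± 0.058 (SE), which is 0.868-fold if the base is 2 (limma, adjusted p = 0.243). The difference was -0.24 among arrays of the female pattern and -0.13 among those of the male pattern. The p53-induced genes Bbc3 (PUMA) and Pmaip1 (NOXA) differed by 0.052 and 0.038, and Bcl2l11 (BIM), which sets neuronal death after loss of trophic factors, by 0.017. Bik, Bad, Hrk and Bid differed by 0.029, -0.0072, -0.025 and -0.043. Of the 8 genes 4 were higher and 4 lower, and the median was 0.0046.

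The effectors and the survival proteins they meet differed little. Bak1 was at 0.0092, 0.089, 0.12 and -0.0097 in VEGF, against -0.0092, 0.025, -0.021 and -0.031 in control, a difference of 0.060 (limma, adjusted p = 0.590). The groups overlapped, and without VEGF 3 the difference was 0.039. Among arrays of the female pattern the Bak1 difference was 0.12, and among those of the male pattern 0.0049. Bok differed by 0.057. All 4 survival genes of the Bcl2 family were lower on average, with a median of -0.025. Bcl2l1, which encodes Bcl-xL, the survival protein of maturing neurons, was at 0.042, -0.057, -0.15 and -0.079 in VEGF, against 0.0075, 0.095, -0.0075 and 0.054 in control. VEGF 1 lay within the control arrays and the other 3 below them, and the difference was -0.097 (limma, adjusted p = 0.440). Without VEGF 1 the groups did not overlap and the difference was -0.13. Bcl2, Bcl2l2 and Mcl1 differed by -0.032, -0.018 and -0.013.

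Set against each other, 20 measured pro-death genes had a median difference of 0.018 and 9 survival genes a median of -0.018, against -0.010 over all genes. Pro-death genes were the apoptotic caspases, the apoptosome genes, Diablo, the effectors, the BH3-only genes, Fas, Tnfrsf10b and Fadd. Survival genes were the 4 of the Bcl2 family, the 3 IAP genes, Cflar and Mdm2. The inflammatory caspases, Tnfrsf1a and Tradd were put on neither side. Of the pro-death genes 11 were higher and 9 lower, and of the survival genes 3 were higher and 6 lower, where 43.3% of all genes were higher. The mean of the pro-death genes was 0.0075, -0.0070, 0.055 and 0.022 in VEGF, against -0.034, 0.028, -0.021 and 0.014 in control. The mean of the survival genes was -0.019, 0.046, -0.045 and -0.017 in VEGF, against 0.012, 0.018, -0.019 and 0.026 in control. The groups overlapped in both means.

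The gap between the means, pro-death minus survival, was 0.026, -0.053, 0.099 and 0.038 in VEGF, against -0.046, 0.010, -0.0021 and -0.013 in control. VEGF 3 had the widest gap and VEGF 2 the most negative one, so that the VEGF arrays enclosed all control arrays. The gap averaged 0.028 ± 0.063 in VEGF and -0.013 ± 0.024 in control (SD, n = 4 each), and the difference of 0.040 was smaller than the spread between VEGF arrays. Without VEGF 3 it was 0.0165. Without VEGF 2 it was 0.0672, and the other 3 VEGF arrays then lay above all control arrays. Leaving out 1 array at a time, the median of the pro-death genes ran from 0.00063 without VEGF 3 to 0.0286 without VEGF 2. It was 0.0266 with each array centred on its median, 0.0036 with the sex pattern as a covariate, and -0.0067 with the inflammatory caspases, Tnfrsf1a and Tradd added to the class.

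**Figure D3:**
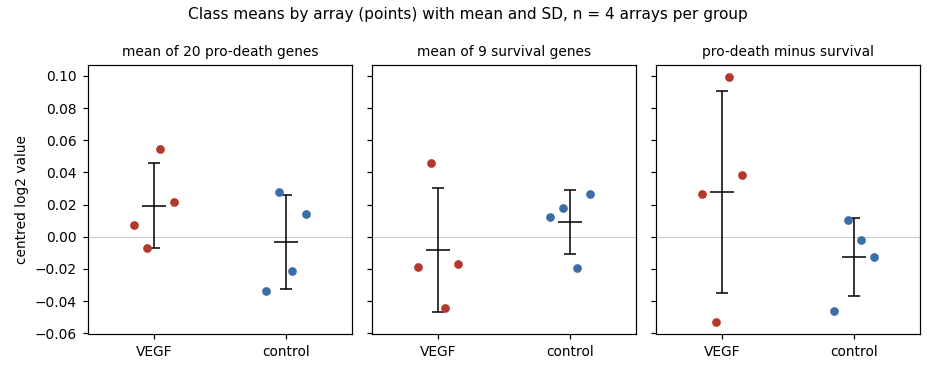
Mean centred log2 value (vertical axis) of 20 pro-death genes, of 9 survival genes and the gap between them, for each array, VEGF left and control right, with points for arrays and bars for the mean and SD of 4 arrays. The groups overlap in each panel, and VEGF arrays span -0.053 to 0.099 in the gap.

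Each of the 8 arrays was the highest or lowest in some members. VEGF 2 was the highest or lowest array in 17 of 34 members (50%), against 44.9% of all genes, and VEGF 3 in 11 (32.4%), against 34.6%. Control 2 was so in 14 (41.2%), against 35% of all genes, and control 1 in 10 (29.4%), against 21.7%. In VEGF 2, Xiap, Birc2, Cflar, Mcl1, Apaf1, Cycs, Diablo and Casp12 were at their highest value of the 8 arrays. Bmf, Bbc3, Bik, Bad, Casp4, Casp6, Casp9, Bcl2 and Tnfrsf1a were at their lowest there. In VEGF 3, Tnfrsf10b, Bak1, Fadd, Bcl2l11 and Casp6 were at their highest, and Bcl2l1, Bcl2l2, Mcl1, Birc3, Casp1 and Casp8 at their lowest. Spread within groups was small, with a median SD of 0.0644 over the members and 0.0752 over all genes.

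**Figure D4:**
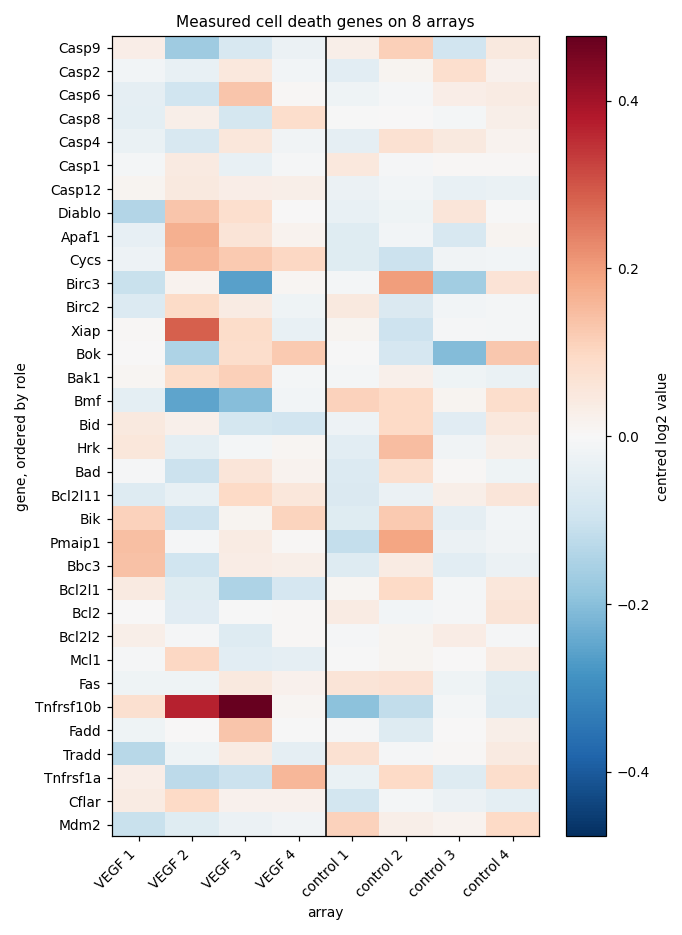
Centred log2 values (colour, from blue for low to red for high) of 34 measured genes (rows, ordered by role) on 4 VEGF arrays, left of the line, and 4 control arrays (columns). The values farthest from 0 are those of Tnfrsf10b in VEGF 3 and VEGF 2, followed by Xiap in VEGF 2, Birc3 in VEGF 3 and Bmf in VEGF 2.

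Because Trp53 was not measured, its antagonist Mdm2 and p53 target genes were read instead. Whether their RNA follows p53 in these embryos was not tested. Mdm2, the ubiquitin ligase that degrades p53 and is itself a p53 target, was at -0.10, -0.057, -0.027 and -0.018 in VEGF, against 0.11, 0.028, 0.018 and 0.095 in control. All VEGF arrays were below all control arrays, by a difference of -0.11 with an SE of 0.037 (limma, adjusted p = 0.289). It was -0.060 among arrays of the female pattern and -0.14 among those of the male pattern. Control 1 and control 4 were the 2 highest arrays. Of 33 other p53 target genes 31 were measured, with Cdkn1a not among them, and 0 passed an adjusted p of 0.05. At an unadjusted limma p under 0.05 there were 9 higher (29%), against 4.62% of all genes, and 2 lower (6.45%), against 7.84%. The list was chosen with earlier results of these data known, Polk among them, so these shares are a description and not a test. The median over the 31 was 0.040, with 22 higher and 9 lower. The members, among them genes that p53 induces, are outside this list. Of these, Bbc3 and Pmaip1 differed by 0.052 and 0.038 (limma, adjusted p = 0.76 and 0.878). Apaf1 and Fas differed by 0.085 and -0.0067, and Tnfrsf10b by 0.33 (limma, adjusted p = 0.265).

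Polk, a DNA polymerase that copies past damaged bases, was at 0.11, 0.11, 0.13 and 0.082 in VEGF, against -0.23, -0.082, -0.19 and -0.11 in control. It separated the groups with little spread, by 0.26 with an SE of 0.041 (limma, adjusted p = 0.243). Ccng1, the cyclin G1 induced by p53, was at 0.060, 0.14, 0.14 and 0.044 in VEGF, against -0.33, -0.044, -0.076 and -0.34 in control. Eda2r, a receptor of the TNF receptor family, was at 0.054, 0.30, 0.20 and 0.015 in VEGF, against -0.63, -0.27, -0.015 and -0.67 in control. Sesn2, a stress-induced regulator of mTORC1, was at 0.026, 0.033, 0.26 and 0.080 in VEGF, against -0.35, -0.052, -0.026 and -0.27 in control.

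In Ccng1, Eda2r and Sesn2 the groups did not overlap, and control 1 and control 4 were the 2 lowest arrays in each, the same arrays that were highest in Mdm2. Their differences were 0.29, 0.54 and 0.27 (limma, adjusted p = 0.243, 0.243 and 0.265). Ckap2 differed by 0.21, Zmat3, Phlda3 and Btg2 by 0.14, 0.22 and 0.19, and Gtse1 by 0.15. Ckap2 and Gtse1 are also genes of dividing cells. The 2 lower genes were Sesn1 at -0.22 and Ddit4 at -0.19, both of which also respond to signals other than p53. The number of targets higher at an unadjusted p under 0.05 was 5 without VEGF 3, 5 without control 1 and 5 without control 4. The share of all genes at that p, in either direction, was also lower in those settings. It was 9.57%, 7.65% and 8.16%, against 12.5% with all arrays.

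**Figure D5:**
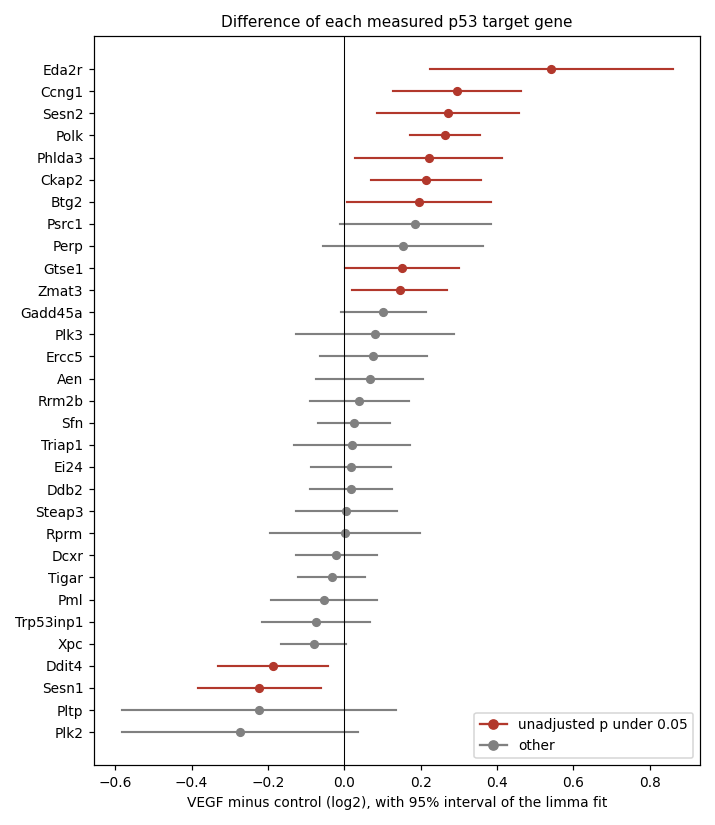
Difference of VEGF minus control (horizontal axis, log2 scale) for 31 measured p53 target genes, with points for the estimate, lines for the 95% interval of the limma fit, and red for an unadjusted p under 0.05. Eda2r lies farthest to the right at 0.54, and 9 red genes are higher and 2 lower.

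Promoters were searched for the p53 half-site, the decamer that p53 dimers bind, to show the letters at the genes just described. The windows were the 250 bases before each RefSeq transcript start of GRCm38.p6, and the half-site reads the same on both strands. It was found in 7.13% of all 32851 windows, in 4 of 46 windows of the members (33 of 37 in the table) and in 9 of 36 windows of the p53 targets (27 of 33 in the table). Shown are the windows with a half-site, in capitals, of 4 genes whose groups did not overlap, 2 lower and 2 higher in VEGF. All 4 lie on the minus strand, that of Bmf at chr2:118544588-118544837, of Mdm2 at chr10:117710759-117711008, of Ccng1 at chr11:40755287-40755536 and of Polk at chr13:96519188-96519437.
Bmf: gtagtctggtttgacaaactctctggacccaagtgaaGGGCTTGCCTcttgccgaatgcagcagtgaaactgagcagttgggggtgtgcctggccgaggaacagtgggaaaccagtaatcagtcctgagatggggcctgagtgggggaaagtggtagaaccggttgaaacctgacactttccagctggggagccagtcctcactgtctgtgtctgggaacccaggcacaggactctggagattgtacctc
Mdm2: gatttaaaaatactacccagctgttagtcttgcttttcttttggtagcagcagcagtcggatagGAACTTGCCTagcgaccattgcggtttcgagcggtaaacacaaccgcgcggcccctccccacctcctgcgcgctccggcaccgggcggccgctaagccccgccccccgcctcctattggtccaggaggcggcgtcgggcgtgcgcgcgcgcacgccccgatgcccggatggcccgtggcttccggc
Ccng1: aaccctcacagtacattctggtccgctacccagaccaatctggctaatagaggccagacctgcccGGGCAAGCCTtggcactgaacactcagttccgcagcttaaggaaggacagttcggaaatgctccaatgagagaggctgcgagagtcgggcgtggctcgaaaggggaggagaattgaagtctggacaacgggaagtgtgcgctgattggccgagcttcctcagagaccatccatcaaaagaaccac
Polk: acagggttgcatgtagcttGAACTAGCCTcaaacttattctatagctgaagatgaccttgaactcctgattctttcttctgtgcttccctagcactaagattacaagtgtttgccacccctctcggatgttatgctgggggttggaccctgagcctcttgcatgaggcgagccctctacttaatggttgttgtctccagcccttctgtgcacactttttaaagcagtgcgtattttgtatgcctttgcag
The half-site begins 213 bases before the start in Bmf, 186 in Mdm2, 185 in Ccng1 and 231 in Polk. A match is a description of these letters, and it was present in genes that were lower as well as in genes that were higher. Matches were also found in Gadd45a, Aen, Ckap2, Ei24, Pml and Sesn1, where the groups overlapped. These differed by 0.10, 0.067, 0.21, 0.018, -0.053 and -0.22. Bax, Trp53 and Cdkn1a had a match too but were not measured. The 3 RefSeq windows of Bmf include 1 with a half-site.

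Of 60 other named genes of cell death outside the members, 55 were measured. None passed an adjusted p of 0.05 in limma, and at an unadjusted p under 0.05 there were 2 higher (3.64%), against 4.62% of all genes, and 1 lower (1.82%), against 7.84%. The median was 0.012. Aifm1, a mitochondrial flavoprotein that can enter the nucleus in caspase-independent death, was at 0.023, 0.15, 0.26 and 0.10 in VEGF, against -0.023, -0.070, -0.031 and -0.035 in control, a difference of 0.17 (limma, adjusted p = 0.245). Birc5 (survivin), also a mitotic gene, differed by 0.25 (limma, adjusted p = 0.332) and Tnfaip3 (A20), a brake on TNF signalling, by -0.081 (limma, adjusted p = 0.389). Of the genes of lytic death, the pore protein Gsdmd differed by -0.098, and the necroptosis genes Ripk3 and Mlkl by -0.020 and -0.0022.

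Markers of cell types were read in the same arrays, and 0 of them passed an adjusted p of 0.05 in limma. The mean of 7 measured mitosis genes of 8 was -0.028, 0.11, 0.23 and 0.026 in VEGF, against -0.16, -0.19, 0.054 and -0.092 in control, highest in VEGF 3 and VEGF 2 as for Tnfrsf10b. All 7 were higher on average, with 4 at an unadjusted p under 0.05 (57.1%), against 4.62% of all genes, among them Ccnb2 at 0.21 and Cdk1 at 0.21. All 9 measured genes of cortical neurons were lower on average, with 5 at that p (55.6%), against 7.84% of all genes, and their mean lay between -0.26 and 0.029 in VEGF and between 0.0091 and 0.12 in control. The mean of 9 radial glia genes lay between 0.020 and 0.20 in VEGF and between -0.14 and 0.010 in control, with 4 higher at that p. The mean of 7 interneuron genes lay between -0.83 and -0.18 in VEGF and between 0.098 and 0.34 in control, with 6 lower at that p. Of the microglia and macrophage genes 9 of 14 were higher on average, with 2 higher and 1 lower at that p, and the list had a mean between -0.027 and 0.14 in VEGF and between -0.14 and 0.0705 in control. Of 10 endothelial genes 0 were at that p, and their mean lay between -0.26 and 0.053 in VEGF and between -0.19 and 0.094 in control. The mean of 6 measured erythroid genes of 7 lay between -0.012 and 0.75 in VEGF and between -0.17 and -0.027 in control, with 3 higher at that p. The part of these markers in the differences of the cell death genes was not tested, and which markers are near background cannot be read from centred values.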

How the data were processed

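Expression was measured in 8 samples on Affymetrix whole-transcript arrays, after Ambion WT cDNA synthesis, per the labels' protocols. Affymetrix Expression Console and the build mm8 are named in the submitters' processing notes, and the sources used here do not give the background correction or summarisation. The authors deposited log2 values (base read from the range, not stated) for 28853 probe sets, each centred to a median within 5e-07 of 0, so no brightness filter or signal over background could be had, and the number of arrays limits the precision. Of the probe sets 21789 had 1 symbol, 1621 several and 5443 none here. Through Entrez identifiers 21698 received their current RefSeq symbol of GRCm38.p6, and probe sets were averaged per gene. No 2 arrays held identical values.

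The test was limma 3.58.1 in R 4.3.3, lmFit and eBayes without covariates, with Benjamini-Hochberg adjustment over 19938 genes and a threshold of 0.05, checked on simulated data. Intervals are 95% intervals of that fit. Differences are VEGF minus control. No label names separate animals, so p-values reflect only the spread between arrays, which may be technical. Members and lists were chosen with earlier results of these data known, Polk among them. Values per array are given for members at an unadjusted p under 0.05, members whose groups do not overlap and the member of smallest p in each role. From the p53 targets and other cell death genes up to 6 at that p were named by smallest p. Of these, Ckap2, Sesn1, Birc5 and Tnfaip3 are given by difference only, and the groups overlapped in Ckap2, Sesn1 and Birc5 but not in Tnfaip3. Zmat3, Phlda3, Btg2, Gtse1, Ddit4, Gsdmd, Ripk3 and Mlkl were named after their values were seen. Correlations of deviations between same-numbered arrays ran from -0.13 to 0.454, so replicate numbers were not taken to pair the arrays. Alternatives were a replicate block, 2 scalings, another prior, array weights, the methods' t-test, single probe sets, a variance filter, a wider pro-death class and leaving out each array. The sex pattern as a covariate was added after seeing the data.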

Additional observations from a re-analysis of the deposited data

Results flagged for a closer look

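Fadd in VEGF 3, at 0.134, stood apart from the other 3 VEGF arrays, which lay between -0.0212 and 0.00256. The gap to the nearest array was 0.847 of the range of the group, above Dixon's critical value at the 95% level. Of 50 groups of 4 arrays examined this was the only one above that value, and chance gives about 1 in 20.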

How the results depend on the processing

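No member passed an adjusted p of 0.05 under any of the 17 alternatives, and the lowest adjusted p of a member described by array was 0.125, for Tnfrsf10b. No difference of the 12 members described by array changed its sign. The median of the survival genes did so without VEGF 3, and that of the pro-death genes with the wider class, at -0.0067. Tnfrsf10b, Bmf, Mdm2 and Cycs were at an unadjusted p under 0.05 in all 17, and Cflar in 8. Leaving out 1 array at a time gave 4 to 6 members at that p and 5 to 8 members whose groups did not overlap (8 without VEGF 1). The share of all genes whose groups did not overlap was not counted in those settings, and groups of fewer arrays separate more easily. Genes past the adjusted threshold numbered 0 to 10 (10 without VEGF 4). Of all genes 7.65% to 14.4% were at the unadjusted p (7.65% without control 1, 8.16% without control 4). The p53 targets higher at that p numbered 5 to 10 with 1 array left out. In the other alternatives they numbered 6 to 11 (11 with the replicate block). With 1 array left out, the median of the survival genes ran from -0.0295 to 0.00026 (0.00026 without VEGF 3). The count of genes past the adjusted threshold was 1 with quantile normalization and 1 with the lowest quartile of variance left out. That filter also left out 10 of the 34 members, and the median of the survival genes was then -0.037. With array weights it was -0.039. The cause of these shifts was not tested. With replicate number as a block 5 of the 34 members (14.7%) were at the unadjusted p, against 13.3% of all genes. In that setting 0 genes passed, and Tnfrsf10b had a limma adjusted p of 0.175, while the numbers were not taken to pair the arrays. Overlap of groups was not run for the block, the prior, the weights, the t-test or the sex covariate. The number of arrays and small differences limit what can be seen.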
